A study of Drosophila melanogaster with 3 samples.

Results

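Oxidative phosphorylation is carried out by protein complexes of the inner mitochondrial membrane, and most of their subunits are encoded in the nucleus. The genes described here are the nuclear protein-coding genes of Drosophila melanogaster whose symbols name subunits of these complexes, namely symbols that start with ND-, UQCR-, ATPsyn or COX and a digit, together with SdhA, SdhB, SdhC and SdhD. They were 84 of 13968 nuclear protein-coding genes. Of these, 40 belong to complex I, 4 to complex II, 9 to complex III, 16 to complex IV and 15 to complex V. The rule uses gene names alone and no measured value.

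The data are chromatin immunoprecipitation sequencing (ChIP-seq) of CG9609-GFP, the fly protein CG9609 tagged at its C-terminus with GFP (green fluorescent protein), from whole embryos of mixed sex aged 0 to 24 h. All embryos came from 1 stable transgenic line, the antibody was directed at GFP, and the sonicated DNA was 200 to 800 bp long. There were 3 biological replicates in 1 group, with no second condition or control among the samples, so no test between groups was possible and the genes are set beside all nuclear protein-coding genes. Whole embryos mix many tissues and stages, and the lists do not say in which cells a peak arose.

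Electrons enter the chain at complex I (NADH dehydrogenase) or complex II (succinate dehydrogenase), pass through complex III (ubiquinol-cytochrome c reductase) to complex IV (cytochrome c oxidase), and the proton gradient built on the way drives complex V (ATP synthase). Each complex needs its subunits in fixed proportions, and part of the core of complexes I, III, IV and V is made from mitochondrial DNA. In Drosophila, many nuclear genes of the chain carry a short palindromic sequence known as the nuclear respiratory gene (NRG) element, and several have a second copy, marked in the symbol by a final L, that is mostly known for expression in the testis.

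The sequences under the peaks show what CG9609-GFP summits looked like at these genes, and 5 are given here because they span the range of base composition. A summit is the position of highest signal in a region. Each run is read along the strand of the respiratory gene, with the 11 bases at the summit in capitals and annotated exon bases left out.
ND-51 (2L:6062782-6062882, minus strand, dm6): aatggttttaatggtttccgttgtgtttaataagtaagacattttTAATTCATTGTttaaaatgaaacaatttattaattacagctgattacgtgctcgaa
ND-ASHI (X:6679313-6679413, minus strand, dm6): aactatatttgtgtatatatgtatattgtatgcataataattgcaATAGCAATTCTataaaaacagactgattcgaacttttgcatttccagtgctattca
COX7B (3L:17425318-17425418, plus strand, dm6): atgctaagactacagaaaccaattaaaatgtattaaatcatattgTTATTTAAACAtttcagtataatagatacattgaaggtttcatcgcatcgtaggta
COX6B (X:19744339-19744430, minus strand, dm6): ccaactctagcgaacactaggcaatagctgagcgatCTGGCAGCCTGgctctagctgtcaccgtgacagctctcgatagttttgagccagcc
ATPsynC (3R:31219641-31219741, minus strand, dm6): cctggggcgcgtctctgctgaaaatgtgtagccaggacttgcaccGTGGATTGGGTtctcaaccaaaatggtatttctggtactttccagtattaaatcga
The ND-51, ND-ASHI and COX7B runs were 74%, 73% and 73% A or T. Those of COX6B and ATPsynC were 45% and 52% A or T, so the summits of these genes did not share a base composition. Over the windows within 50 bp of the members' summits, the A/T content was 63.0% ± 8.57 (SD, n = 17 peaks), against 60.9% ± 9.38 at 2003 other promoter peaks. In windows centred 300 bp to either side it was 53.4% ± 11.6 beside the members' peaks (34 windows) and 56.3% ± 10.8 beside the other promoter peaks.

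None of the members' summits lay on an NRG element, although the element was frequent in these genes. An element of 10 bases matching the NRG consensus was present within 500 bp of the start of the canonical transcript in 24 of 84 members (28.6%), against 424 of 13967 genes (3.04%). All 24 lay downstream of the transcription start site (TSS), 151 to 453 bp from it with a median of 238 bp, 18 in introns and 6 in 5′ UTRs. Over all genes, 172 of 436 elements were downstream. The following stretches of 30 bases show the element in capitals, with the strand of the gene and dm6 coordinates of the element, at 8 members with a CG9609-GFP peak and at 6 members without one.
ND-24 (X:17632532-17632541, plus strand, with a peak): tgttccccgaGTTATATAATtggcgacagg
ND-51 (2L:6062509-6062518, minus strand, with a peak): atgccatcaaATTATGTAATttttgcgcaa
ND-B17 (2L:15750693-15750702, minus strand, with a peak): tgtcgtgggtATTATGTAATcaagtttttg
ND-MNLL (X:7893583-7893592, minus strand, with a peak): actcgtttttATTACGTAATgcggcaaaat
COX6B (X:19744035-19744044, minus strand, with a peak): aaaagtacaaGTTACATAACtcgctgatgc
COX7B (3L:17425693-17425702, plus strand, with a peak): aaccttaaaaATTACATAATgtggataagc
ATPsynC (3R:31219141-31219150, minus strand, with a peak): ttttccgcatGTTACGTAACttttctgagg
ATPsynE (3R:14327267-14327276, plus strand, with a peak): cggtcggacaATTACATAACttgaagaaga
ND-B22 (2L:13370802-13370811, minus strand, no peak): attcccaaatATTATATAATgagcaagtgc
SdhD (3R:23760388-23760397, minus strand, no peak): aacagctttcATTATATAACcaaaccgttt
UQCR-C1 (3R:14890472-14890481, plus strand, no peak): gaggatttaaATTACGTAATtgtaaatgat
UQCR-Q (3L:17475275-17475284, plus strand, no peak): cagtgcgaaaATTACATAACctccgggtgc
COX4 (2L:19959099-19959108, plus strand, no peak): tctgctagctGTTACATAACctccaactaa
ATPsynD (3R:19095211-19095220, plus strand, no peak): attgaaaaaaATTACATAATttttgcgagc
At the 9 members with both a peak and an element, the summit was 248 to 546 bp from the element with a median of 330 bp, and the element lay outside the peak region in each. The element was found in 9 of 16 members with a peak and in 15 of 68 without one. None of 19 L-suffixed copies had it, and without these copies the count among members with no peak was 15 of 49 (30.6%). Over all genes with a peak the share was 3.66%, and among mitochondrial ribosomal protein genes it was 2.74%. The element was not confined to the members. Of 13 respiratory chain and ADP/ATP exchange genes with other symbols, 5 had it (38.5%). With assembly factors, genes of the tricarboxylic acid cycle and regulators of mitochondrial genes added, the count was 7 of 46 (15.2%). By complex, the element was found in 8 genes of complex I, 2 of complex II, 2 of complex III, 4 of complex IV and 8 of complex V. The window of 500 bp was chosen after the data had been seen. In the shorter promoter window from 250 bp upstream to 50 bp downstream, 0 of 84 members had the element, against 0.866% of all genes.

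A gene was counted as having a promoter peak when a summit lay within 500 bp of any TSS of its protein-coding transcripts. The main list was the set of 3747 peaks that the authors called reproducible, referred to as the reproducible set, and peaks are ranked by the authors' signal value within a list, with rank 1 the strongest. Of each replicate list, which held 30000, 29898 and 30000 regions and included background, the 3747 strongest regions were used. Replicate 1 stood apart: 8.99% of its strongest regions had their summit in a coding exon, against 1.31% in replicate 2 and 0.801% in replicate 3.

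Oxidative phosphorylation genes had CG9609-GFP promoter peaks about as often as other genes. In the reproducible set, 16 of 84 members (19.0%, 95% Wilson interval 12.1 to 28.7%) had a peak, against 18.8% of all genes. Among the strongest regions, 14 members (16.7%) had a peak in replicate 1, 17 (20.2%) in replicate 2 and 15 (17.9%) in replicate 3, against 16.8%, 18.7% and 18.5% of all genes. The mean share was 18.3% ± 1.82 for members and 18.0% ± 1.03 for all genes (SD, n = 3), a difference smaller than the spread between replicates. A consensus of the strongest regions without replicate 1, with summits of the other replicates within 100 bp of each other, left 10 members, against 14.0% of all genes. In all, 11 of 84 members were among the strongest regions of every replicate and 21 of at least 1. Over all 13968 genes these counts were 1772 and 3342. The intervals cover counting error only, and since the lists hold no read counts, read depth is unknown.

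The peaks fell in complexes I, IV and V. Complex I had 9 of 40 genes with a peak (22.5%, Wilson interval 12.3 to 37.5%), complex IV 4 of 16 (25%, 10.2 to 49.5%) and complex V 3 of 15 (20%, 7.05 to 45.2%). Complexes II and III had none among 4 and 9 genes, with upper Wilson limits of 49.0% and 29.9%. All these intervals contain the 18.8% of all genes, so no complex could be set apart from the background or from another complex at these gene numbers. The replicates gave 8, 8 and 9 genes of complex I, 3, 3 and 4 of complex IV, and 2, 5 and 2 of complex V. In complex II, 1 gene was among the strongest regions of replicate 2 alone, and in complex III 1 gene of replicate 1 alone.

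**Figure D1:**
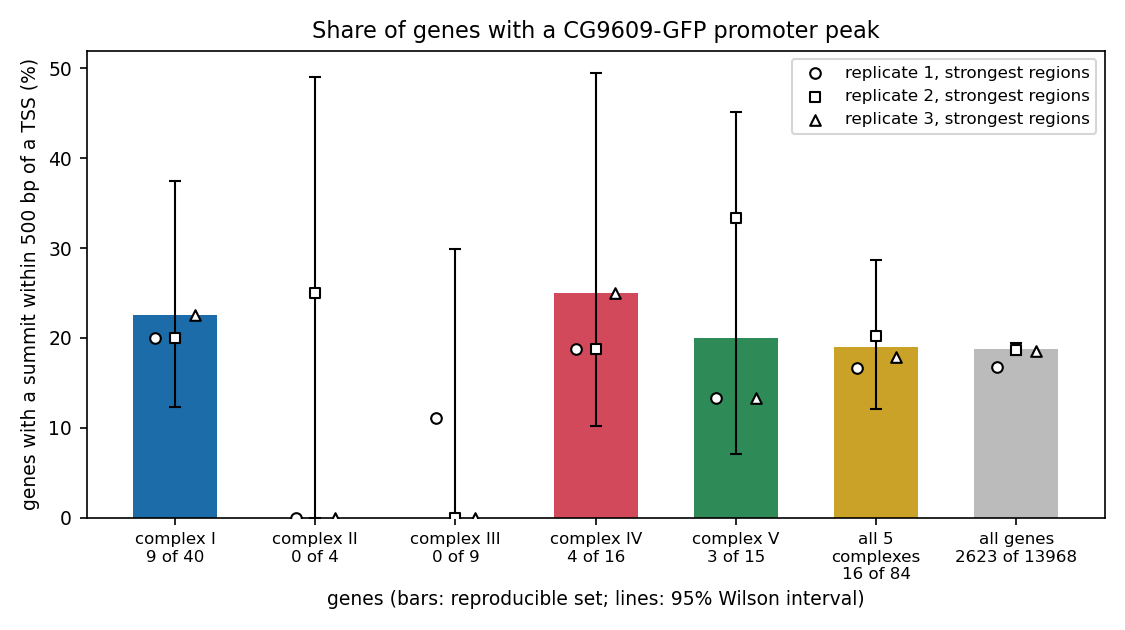
The bars give the percentage of genes with a reproducible CG9609-GFP summit within 500 bp of a TSS, for each respiratory complex, for all members and for all genes; vertical lines are 95% Wilson intervals, and open symbols give the share from the 3747 strongest regions of each replicate. The bars of complexes I, IV and V stand between 20% and 25%, close to the 18.8% of all genes, complexes II and III are at 0, and the intervals of all complexes reach across the bar of all genes.

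Members with a peak had 17 peaks in all, since ND-SGDH had 2. The median rank of these peaks was 1619, against 1770.5 for all 2020 promoter peaks of the reproducible set. They ran from rank 144 to rank 3470. Of the 17, 10 (58.8%) had a counterpart within 100 bp in the strongest regions of every replicate, against 57.6% of all promoter peaks. A further 3 were found so in 2 replicates and 4 in 1 replicate. The 48 replicate summits matched within 100 bp lay a median of 12.5 bp from the reproducible summit.

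**Figure D2:**
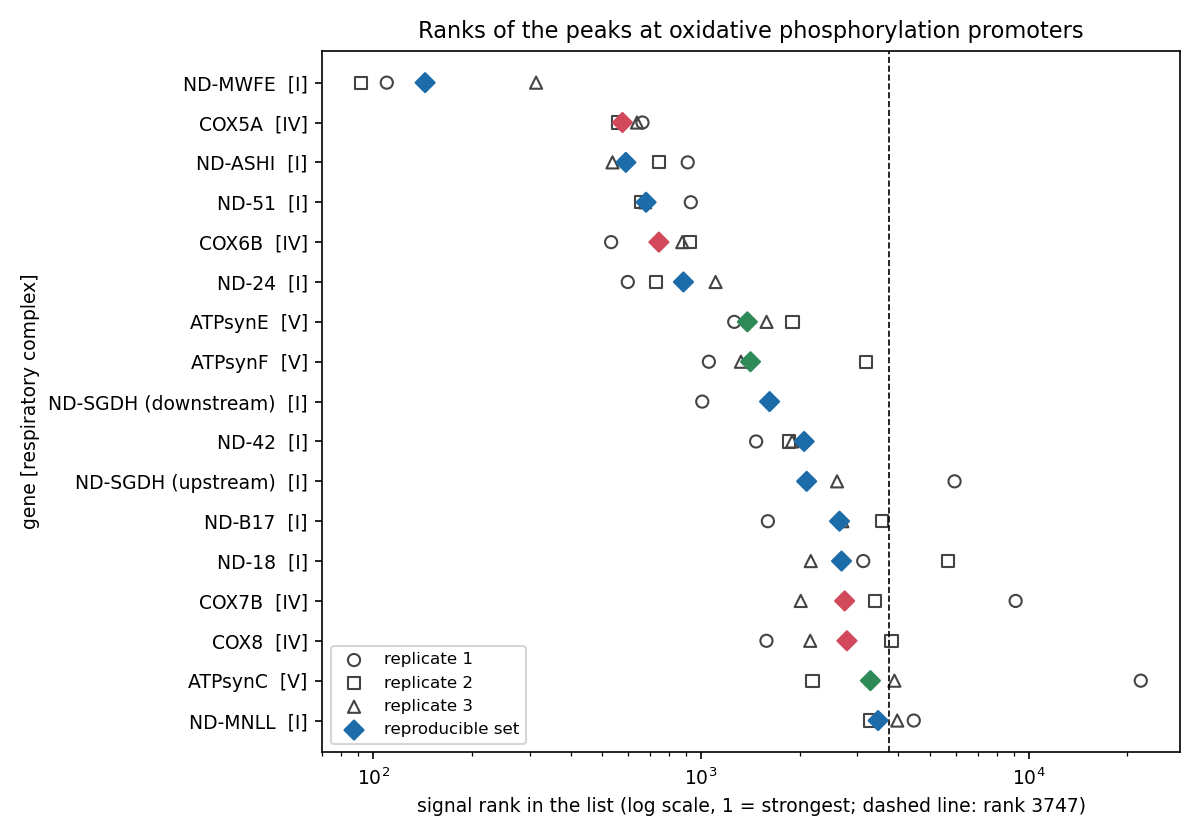
Each row is 1 peak at an oxidative phosphorylation gene, ordered by rank in the reproducible set (filled diamonds, coloured by complex), and open symbols give the rank of the replicate region within 100 bp; the horizontal axis is the signal rank on a log scale and the dashed line marks rank 3747. Ranks of the 6 strongest peaks lie between 92 and 1108 in every replicate, while COX7B and ATPsynC have replicate 1 at 9119 and 21964.

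In complex I, the strongest peak was at ND-MWFE (FBgn0085468), a small accessory subunit of the membrane arm. Its region, 2R:13158339-13158616, had rank 144 with a signal of 504.6, and ranks 110, 92 and 314 in replicates 1, 2 and 3. All 3 replicates placed it above the other members. The summit was 210 bp upstream of ND-MWFE but only 11 bp upstream of TppII, which encodes tripeptidyl-peptidase II and runs the other way, so ND-MWFE was not the nearest gene.

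Both subunits that carry the NADH-oxidising centre at the tip of complex I had a peak. ND-51 (FBgn0031771), which binds NADH and the flavin, had rank 680 at 2L:6062764-6062881, with replicate ranks 931, 658 and 675. ND-24 (FBgn0030853), its iron-sulfur partner, had rank 884 at X:17631964-17632353, with replicate ranks 598, 730 and 1108. In each case the member was the nearest gene, and the summit lay 75 bp upstream of ND-51 and 70 bp downstream of ND-24. Across the promoter, on the other strand, stood CG13994 for ND-51 and corolla, a gene of the synaptonemal complex, for ND-24. Their L-suffixed copies ND-51L1, ND-51L2 and ND-24L had no region in any replicate list.

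Accessory subunits made up most of the other complex I genes. ND-ASHI (FBgn0029888) had rank 590 at X:6679295-6679463, with replicate ranks 911, 743 and 537, and its summit was 245 bp upstream of ND-ASHI and 277 bp upstream of Fum1. Fum1 encodes fumarase of the tricarboxylic acid (TCA) cycle, overlaps ND-ASHI on the other strand, and holds this summit in an intron. ND-42 (FBgn0019957) had rank 2064 at 3R:22027161-22027550, with replicate ranks 1473, 1851 and 1897. That summit was 353 bp from ND-42 and 42 bp from Cchl, which encodes the holocytochrome c lyase that attaches haem to cytochrome c. ND-B17 (FBgn0001989), at 2L:15751001-15751390, had rank 2646 and replicate ranks 1600, 3575 and 2699. It was 1 of 2 members whose peak had no other protein-coding TSS within 500 bp.

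At the remaining complex I genes, the replicates differed in where or how strongly the signal appeared. ND-SGDH (FBgn0011455) had a peak 19 bp downstream of its TSS at 3L:12138370-12138759, rank 1619, and one 213 bp upstream at 3L:12138602-12138991, rank 2101. Replicate 1 placed the downstream peak at rank 1009 and the upstream one at 5938, replicate 3 had only the upstream one, at rank 2601, and replicate 2 had its best region near the gene, at rank 1212, more than 100 bp from both summits. ND-18 (FBgn0031021), which takes part in complex I assembly and activity, had rank 2684 at X:19492128-19492517, with replicate ranks 3126, 5675 and 2162, and faced pcm, the cytoplasmic exoribonuclease. ND-MNLL (FBgn0029971) had the weakest peak of all members, rank 3470 at X:7893641-7894030, with replicate ranks 4458, 3277 and 3970. ND-MNLL shares its TSS with CG45089, and p115, a Golgi tethering factor, starts on the other strand.

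In complex IV, COX5A and COX6B had the strongest and steadiest peaks. COX5A (FBgn0019624) had rank 576 at 3R:11819488-11819587, with replicate ranks 663, 560 and 638, and its summit was 75 bp upstream of the nearest COX5A TSS, inside an intron of the transcripts that start further upstream. COX6B (FBgn0031066), whose product faces the intermembrane space, had rank 744 at X:19744194-19744583, with replicate ranks 532, 927 and 877. The COX6B summit was 54 bp upstream of COX6B and CG18809, which share a TSS, and 42 bp upstream of CG33932 and Rpp20, an RNase P subunit, on the other strand. COX5A faced glo, which encodes the RNA-binding protein Glorund.

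COX7B and COX8, small membrane subunits of complex IV, had weaker peaks. COX7B (FBgn0040793) had rank 2744 at 3L:17425173-17425562 and replicate ranks 9119, 3393 and 2015, so it was low in replicate 1. COX8 (FBgn0263911) had rank 2788 at 3L:21539266-21539655 and replicate ranks 1584, 3814 and 2154. Their summits were 109 bp and 14 bp upstream of the members' TSSs. Sec3, an exocyst subunit, lay opposite COX7B, and VhaM9.7-b, a subunit of the vacuolar proton pump, opposite COX8.

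In complex V, ATPsynE, ATPsynF and ATPsynC had a peak, and each encodes a subunit of the membrane-embedded portion of ATP synthase, as does ATPsynG, which had none. ATPsynE (FBgn0038224) had rank 1385 at 3R:14326816-14327205, with replicate ranks 1263, 1902 and 1585, and its summit was in the 5′ UTR of its longer transcripts, 57 bp upstream of the nearest TSS. ATPsynF (FBgn0035032) had rank 1416 at 2R:24599705-24600094, with replicate ranks 1057, 3180 and 1324, 79 bp upstream of ATPsynF and 47 bp upstream of CG3548. ATPsynC (FBgn0039830), the subunit of the rotating ring, had rank 3288 at 3R:31219496-31219885, with replicate ranks 21964, 2189 and 3892. ATPsynC was thus among the strongest regions in replicate 2 alone, and like ND-B17 it had no neighbouring TSS. Afti, a clathrin-associated protein gene, lay opposite ATPsynE.

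Members with a peak mostly shared it with a gene on the other strand. Of the 17 summits, 15 were upstream of the member's TSS, with a median of 75 bp upstream over all 17. For all promoter peaks the distance was taken to the nearest TSS of any gene, with a median of 76 bp upstream and 83.0% upstream. These measures differ, since some member peaks lay nearer to another gene, so the medians are not like for like. For 12 peaks the member's TSS was the nearest or shared the nearest position, and 15 had an opposite-strand gene within 500 bp of the summit. No other member peak had a second gene in reach, and 40.1% of all promoter peaks had 2 or more genes within 500 bp. Member peaks were picked through their genes, which favours peaks with several genes in reach, so these peak shares are not like for like. Counted by gene, 14 of 16 members with a peak (87.5%) had an opposite-strand TSS within 500 bp of their own, against 57.1% of all genes with a peak. When each peak was counted only for the gene with the nearest TSS, 12 of 84 members kept one, against 13.7% of all genes, and ND-MWFE, ND-42, COX6B and ATPsynF lost theirs.

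**Figure D3:**
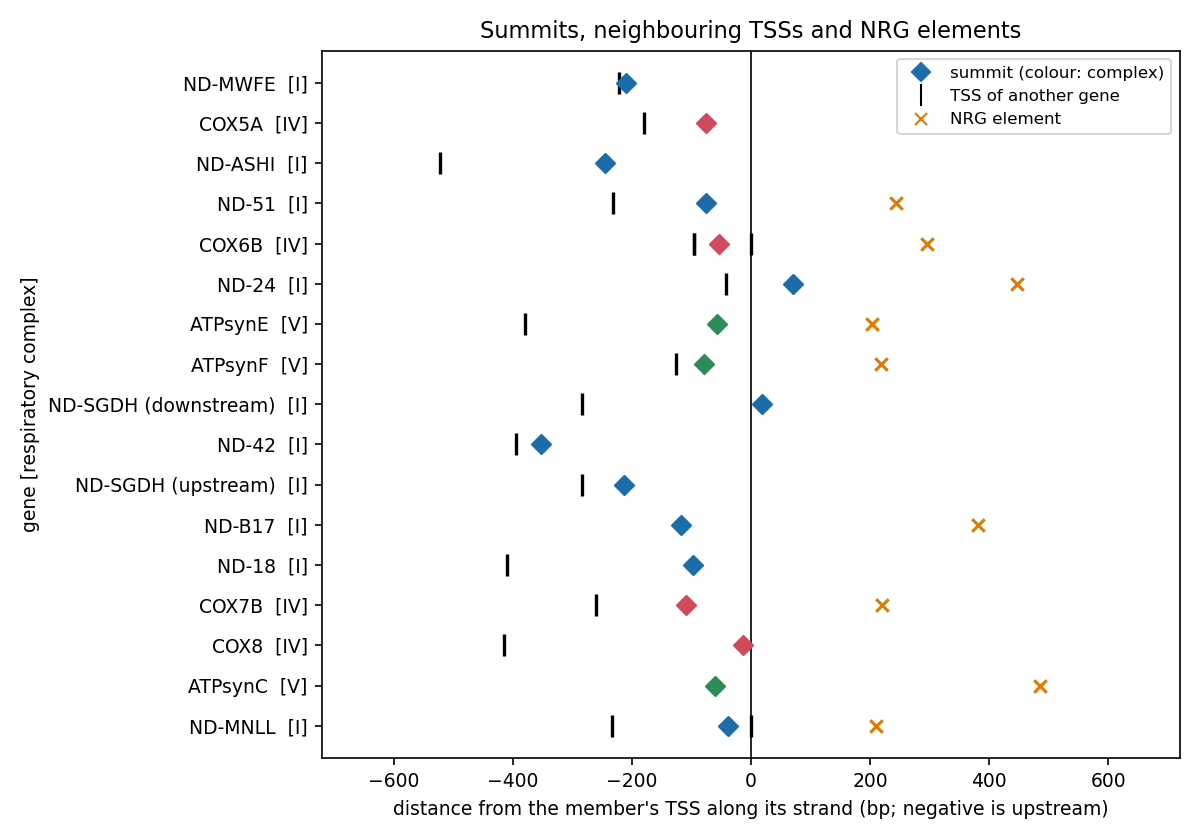
Each row is 1 peak at an oxidative phosphorylation gene in order of rank, placed by distance in bp from the member's TSS nearest to the summit, with upstream to the left; diamonds are summits, vertical ticks are TSSs of other genes within 500 bp of the summit and crosses are NRG elements. The summits crowd within 150 bp of the TSS (13 of 17), the other genes' TSSs lie mostly upstream, and the 9 NRG elements are all downstream, away from the summits.

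A start site on the opposite strand went with a higher share of peaks in the members as it did in all genes. Of 40 members with an opposite-strand TSS within 500 bp, 14 (35.0%, Wilson interval 22.1 to 50.5%) had a peak, and of 44 members without one, 2 (4.55%, 1.26 to 15.1%) had a peak. Over all genes the shares were 38.6% with such a neighbour and 11.2% without. With neighbours counted within 250 bp only, 9 of 25 members with one (36%, 20.2 to 55.5%) and 7 of 59 without one (11.9%, 5.87 to 22.5%) had a peak, so the intervals then overlap. Such neighbours were more common among members, at 47.6%, against 27.8% of all genes. Leaving out the L-suffixed copies, 14 of 38 members with a neighbour (36.8%) and 2 of 27 without one (7.41%) had a peak. Only ND-B17 and ATPsynC had a peak with no such neighbour. A peak counts for every gene within 500 bp of its summit, so a neighbour's peak can also count for the member. The part of this in these shares was not tested.

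The L-suffixed copies had no peak. None of 19 such genes had one in the reproducible set (upper Wilson limit 16.8%), whereas 16 of the other 65 members had one (24.6%, Wilson interval 15.8 to 36.3%), against 18.8% of all genes. None of the copies was among the strongest regions of any replicate. Counting COX6CL and ATPsynepsilonL as copies too, whose founding genes are named cype and sun, gave 0 of 21 against 16 of 63 (25.4%). In the whole replicate lists, 12 of the 19 copies (63.2%) and 6 of the other 65 members (9.23%) had no region within 500 bp in any replicate, against 31.4% of all genes. Only 2 of the 40 members with an opposite-strand neighbour were L-suffixed copies, COX7AL and ATPsynbetaL, so the copies also differed from the other members in promoter arrangement, and the part of this in their count was not tested.

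Below the reproducible threshold, weak regions lay near most of the remaining genes. Over all 13968 genes, 6215, 6931 and 7506 had a region within 500 bp in the whole lists of replicates 1, 2 and 3. Among the 84 members, 41, 47 and 57 had one in these lists. Together 66 of 84 members had one in at least 1 replicate, against 68.6% of all genes, and 30 had one in all 3, against 31.0% of all genes. These lists include background regions, so such a region is weak evidence of a peak. The 18 members with no region in any replicate were ND-13A, ND-19, ND-20L, ND-24L, ND-39, ND-49L, ND-51L1, ND-51L2, SdhA, UQCR-14L, COX5BL, COX6AL, COX6AL2, COX6CL, ATPsynCF6L, ATPsynGL, ATPsynbetaL and ATPsynepsilonL. ND-13A, ND-19 and ND-39 belong to complex I, and SdhA encodes the flavoprotein that oxidises succinate.

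The best-ranked members outside the reproducible set were each strong in at most 1 replicate. UQCR-Q, a complex III subunit, had ranks 1955, 7459 and 8434 in replicates 1, 2 and 3. SdhD, a membrane anchor of complex II, had ranks 2784 and 8148 in replicates 2 and 3 and no region in replicate 1. ND-B17.2, an accessory complex I subunit, had ranks 21484, 13602 and 2838. In the other lists each was past rank 3747 or had no region, so the replicates did not agree on them.

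ATPsynD and ATPsynO, subunits of the stalk that holds ATP synthase still, showed the same split between replicates. ATPsynD had ranks 13156, 3069 and 8331, and ATPsynO had ranks 15012, 3474 and 12298. Only replicate 2 placed them among the strongest regions. ATPsynbeta, the catalytic subunit, was more even in rank, with 5906, 4574 and 5314, but outside the strongest regions throughout. Its regions lay 395, 125 and 489 bp upstream of a TSS in replicates 1, 2 and 3, so they may not be the same site. CG11076 starts on the other strand within 500 bp. In complex IV, the best-ranked genes without a peak were COX7AL at 4846 and COX7C at 5100. ND-B22 of complex I, SdhC of complex II and UQCR-14 of complex III reached ranks 3805, 4280 and 3806 at best, just past the limit of the strongest regions.

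**Figure D4:**
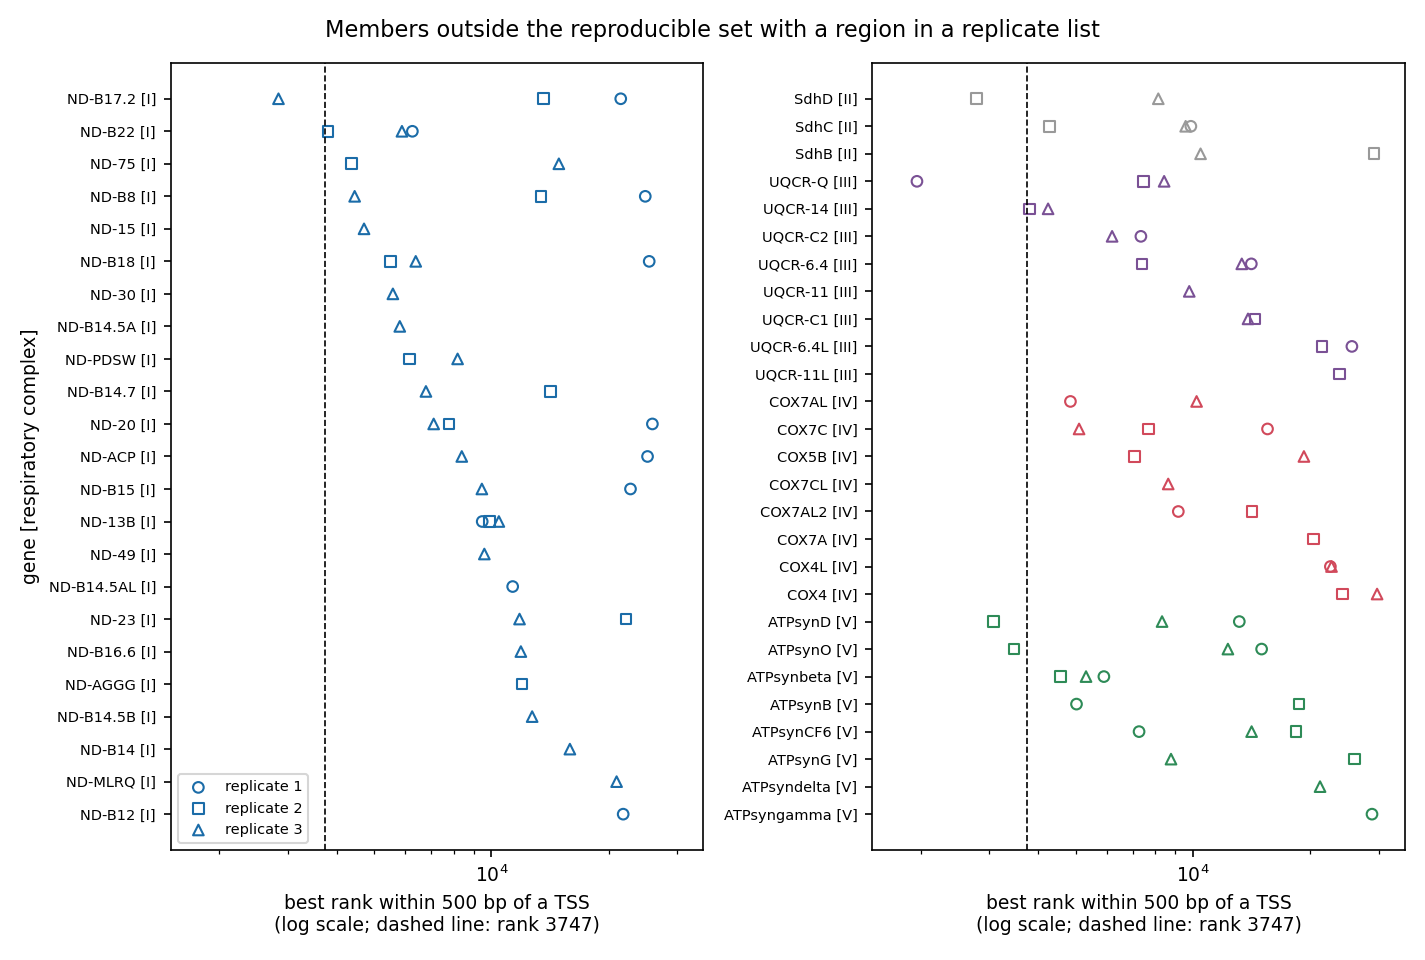
Each row is a member with no peak in the reproducible set but with a region within 500 bp of a TSS in at least 1 replicate list, with complex I on the left and the other complexes on the right; the horizontal axis is the best rank in each replicate on a log scale and the dashed line marks rank 3747. Among these genes 5 symbols lie left of the line, at ND-B17.2, SdhD, UQCR-Q, ATPsynD and ATPsynO, each in a single replicate.

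Known promoter motifs were rare under the members' peaks. Within 50 bp of the 17 summits, the DNA replication-related element (DRE, TATCGATA) was found at 1, in ATPsynE, a share of 5.88%, against 5.29% of other promoter peaks. Both strands were searched. The core of promoter motif 1 was taken as GGTCACAC and the E-box as CACGTG. Repeats for the GAGA factor were taken as GAGAGAG. The site of ERR, the oestrogen-related receptor, was taken as AAGGTCA, and an Ets site as CCGGAAG. For the Drosophila relative of NRF-1 the letters were GCGCATGC, and for the early embryonic activator Zelda they were CAGGTAG. The NRG element was searched as well. None of these was present at a member's summit, and at other promoter peaks they were also rare, from 0.2% for the NRG element and the NRF-1 letters to 2.9% for motif 1, so 0 of 17 does not set the members apart. No match says only that these letters were not in the window.

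Motif 1 was common in the members' promoters but away from the summits. It was found from 250 bp upstream to 50 bp downstream of the canonical TSS in 17 of 84 members (20.2%), against 7.52% of all genes, namely in 6 of 16 members with a peak and 11 of 68 without. Within 500 bp of the canonical TSS it was in 23.8% of members and 10.6% of all genes. There the share was 17.0% of all genes with a peak, 20.5% of mitochondrial ribosomal protein genes and 23.1% of 13 respiratory chain genes with other symbols. DRE was found in 8 of 84 member promoters (9.52%), against 8.94% of all genes. The 5 words of 8 bases that stood out most under peaks away from the members were ATCGATAG, CAACACTG, TATCGATA, TTTAAAAA and ATTTAAAA, of which ATCGATAG and TATCGATA overlap. The A/T-rich pair was found at 3 of 17 member summits each (17.6%), against 5.29% and 5.04% of other promoter peaks, with TTTAAAAA at ND-24, ND-SGDH and ND-42 and ATTTAAAA at COX5A, ATPsynE and ND-42. CAACACTG was found at COX6B.

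Genes of the respiratory chain named outside this scheme also had promoter peaks. Of 13 such genes, 4 had a peak (30.8%, Wilson interval 12.7 to 57.6%), against 18.8% of all genes. The strongest was at blw, the alpha subunit of ATP synthase, with rank 173 and replicate ranks 236, 120 and 270, so in this complex the partner of ATPsynbeta had a peak while ATPsynbeta had none. Cyt-c-d, a cytochrome c gene known for its role in the testis, had rank 448 with the summit 401 bp downstream of its TSS, and levy, a complex IV subunit, had rank 999. Another gene was also within 500 bp of each summit, CG31808 at Cyt-c-d and wmd at levy. The complex III subunit gene ox, at rank 3699, was the only complex III gene of either list with a peak. Its replicate ranks were 4812, 8086 and 3579, so only replicate 3 placed it among the strongest regions, and Dgkepsilon was also within 500 bp of its summit. SdhAL and SdhBL, copies of complex II genes, had no region in any replicate.

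Mitochondrial ribosomal protein genes, the other large nuclear set that serves the same complexes, were counted in the same way. They had a peak in 25 of 73 cases (34.2%, Wilson interval 24.4 to 45.7%), against 18.8% of all genes. The replicates gave 21, 28 and 25 of them (28.8%, 38.4% and 34.2%), against 16.8%, 18.7% and 18.5% of all genes. Counting a peak for the nearest TSS alone left 10 of them (13.7%), the same share as the 13.7% of all genes.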

How the data were processed

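Peak lists of 3 biological replicates, a pooled list and the reproducible set, thresholded by irreproducible discovery rate, were used in build dm6; lists in dm3 were not used. The signal value per region is the authors' own, deposited in the lists. For its scale, the aligner and the peak caller, the sources used here name none. Signal ranked regions within a list only. All 3747 reproducible peaks were in the pooled list.

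Summits, 1-based, were joined to Ensembl release 115 TSSs (BDGP 6.54), with bases from the RefSeq Release 6 genome, the same assembly as dm6. Python 3.11.15, pandas 2.3.3, numpy 2.4.6 and scipy 1.17.1 were used, and the counting was tested on simulated data. With 1 group there was no test.

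The members and lists were chosen with earlier results of these data known. Named genes were members with a peak and the genes sharing it, per complex the 2 best-ranked members without one, members with no region, other pathway genes with a peak and regulators of mitochondrial genes; 1 gene sharing a peak is not reported here, and other genes were named after their values were seen. Ecsit, Cox15 and Nc73EF matched no symbol. Alternatives were other promoter windows, the canonical TSS, whole regions, the 1873 strongest peaks, a replicate consensus, nearest TSS only, other numbers of strongest regions and other motif windows.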

Additional observations from a re-analysis of the deposited data

How the results depend on the processing

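The count of members with a peak (16) stayed at 15 to 17 with windows of 250 and 1000 bp, the canonical TSS, whole regions or the pooled list. It was 9 with the stronger 1873 peaks, where 10.7% of all genes had one, and 9 in the consensus of the replicates, against 11.5% of all genes. In that consensus with each replicate left out in turn it was 10 to 12 (10 without replicate 1, 12 without replicate 2, 10 without replicate 3), against 14.0, 13.0 and 13.3% of all genes; fewer peaks enter by construction. Complexes II and III and the L-suffixed copies kept 0 in all these settings. Mitochondrial ribosomal protein genes (25) fell to 16 with the stronger peaks, 15 in the consensus, 10 with the nearest TSS and 16 to 18 without single replicates (16 without replicate 2). Other pathway genes (17) fell to 11 at 250 bp and 12 with the nearest TSS, and were 14 to 16 without single replicates. The median rank of 1619 became 2082.5 at 1000 bp and 744 with the stronger peaks, and the median position became -98 bp with the canonical TSS. The mean of 15.3 members in the replicates became 9.33 with 1873 regions, 26.3 with 7494 and 13.7 at 250 bp, and 14.5 to 16.0 without single replicates. The mean of 48.3 members in whole lists became 60.3 at 1000 bp, and 44.0 to 52.0 without single replicates. The count of motifs at summits (1) became 0 at 25 bp and 2 at 100 bp. Unless stated, the cause was not tested. No paired analysis was possible because there was only 1 group. Complexes of 4 to 16 genes limit what the counts can show.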

Other observations

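CG9609-GFP peaks lay at genes around the respiratory chain as well. Of 16 genes of the TCA cycle and pyruvate dehydrogenase, 7 had a peak (43.8%, 95% Wilson interval 23.1 to 66.8%), against 18.8% of all genes, with 7, 8 and 7 genes in replicates 1, 2 and 3. They included all 3 subunits of the NAD-dependent isocitrate dehydrogenase, Idh3a at rank 2422, Idh3b at rank 1597 and Idh3g at rank 1552. The strongest was mAcon1, mitochondrial aconitase, at rank 479, followed by Fum1 at rank 590, whose peak is that of ND-ASHI. Ogdh, a subunit of 2-oxoglutarate dehydrogenase, had rank 1506, and muc, the acetyltransferase of pyruvate dehydrogenase, rank 2309.

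Among 6 assembly factors, CIA30, which acts on complex I, had rank 67 with replicate ranks 75, 58 and 80, above every oxidative phosphorylation subunit gene, and Cox17, a copper chaperone of complex IV, had rank 1613. Of 11 regulators of mitochondrial genes and DNA, 4 had a peak (36.4%, Wilson interval 15.2 to 64.6%). These were mtSSB, the single-stranded DNA-binding protein, at rank 642, the nuclear receptor ERR at 904, the mitochondrial RNA polymerase PolrMT at 1726 and the DNA polymerase accessory subunit PolG2 at 1837. The coactivator gene srl, Ets97D, ewg, TFAM, mtTFB1, mtTFB2 and PolG1 had none. With the respiratory chain genes outside the name rule added, 17 of 46 genes had a peak, against 18.8% of all genes. When each peak was counted only for the nearest TSS, 12 had one, against 13.7% of all genes. Several of these peaks had another gene in reach, such as CG7601 at CIA30 and CG4743 at Idh3g. These lists are short, and no test was made.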
